A study of Mus musculus with 12 samples.

Results

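A set of 10 early-response genes was followed in newly made RNA of mouse macrophages: the zinc-finger transcription factor genes Egr1, Egr2 and Egr3, the nuclear receptor genes Nr4a1, Nr4a2 and Nr4a3, the antiproliferative genes Btg1 and Btg2, and Ier3 and Csrnp1. They were chosen by symbol in the array annotation, and all 10 were measured, of 19937 genes tested in all. Each had 1 probe set, and none was named by a probe set that lists several genes. The study crossed 2 kinds of C57BL/6 macrophage with lipopolysaccharide (LPS), the bacterial ligand of Toll-like receptor 4, on 3 arrays per group (12 arrays). The groups were MPI-2 with LPS, MPI-2 mock, bone marrow-derived macrophages (BMM) with LPS and BMM mock. MPI-2 is 1 line of GM-CSF-induced macrophages from fetal liver, grown in RPMI with GM-CSF. BMM were differentiated ex vivo from marrow with M-CSF and grown in DMEM with M-CSF. Both media held 10% fetal calf serum. In all 4 groups the RNA made over 60 min was marked with 4-thiouridine, a uridine analogue, and purified. With LPS the labelling began 30 min after the stimulus, so that it covered the window from 30 to 90 min. The first wave of transcription, in the first 30 min of LPS, lies outside that window. Growth factor, medium, tissue of origin and any array batch cannot be told apart from the cell type.

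Immediate early genes are transcribed within minutes of a stimulus without new protein synthesis, and their short-lived mRNAs soon decline again. ERK signalling through serum response factor (SRF) and its Ets partners, and cyclic AMP signalling through the factor CREB, are the textbook routes to them, and growth factors such as M-CSF and Toll-like receptor ligands such as LPS both engage these kinases in macrophages. Egr proteins bind GC-rich DNA and are held back by the corepressors Nab1 and Nab2. Nr4a proteins are orphan nuclear receptors that act without a known natural ligand. Btg1 and Btg2 bind the CCR4-NOT complex, which shortens mRNA tails. Ier3 modulates cell survival, and Csrnp1 encodes a nuclear protein rich in cysteine and serine.

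Values are deposited log2 expression levels. Changes are log2 differences with their standard error (SE). Each gene's SE rests on 1 spread over all 4 groups, so its LPS changes in MPI-2 and BMM have the same SE. A gene was called when limma's Benjamini-Hochberg adjusted p over all 19937 genes was under 0.05. The level taken as background was 3.37, the 95th percentile of olfactory receptor genes. Every member had group means above it in all 4 groups. All 11 macrophage markers examined were also above background in each group. Their summed linear level was 5259 to 5427 in MPI-2 LPS, 4513 to 4935 in MPI-2 mock, 5376 to 6233 in BMM LPS and 7688 to 8350 in BMM mock. None of 5 mast cell and basophil markers was above background in any group, and 1 of 5 T cell markers (Cd3e) and 1 of 4 NK cell markers (Prf1) were in all 4. Of 4 B cell markers none was above it in MPI-2 and 2 (Cd79b and Pax5) were in both BMM groups. Of 5 dendritic cell markers 1 was above it in both MPI-2 groups, 3 in BMM LPS and 2 in BMM mock. Of 3 erythroid and megakaryocyte markers 1 was in MPI-2 and 2 in BMM, and of 5 hepatocyte and epithelial markers 2 were in BMM LPS and 1 in each other group. Of 8 neutrophil markers 3 were above it in MPI-2 LPS and 2 in MPI-2 mock, with summed levels of 152.5 to 163 and 76.19 to 87.06; in BMM LPS and BMM mock 3 and 4 were, at 72.17 to 83.7 and 72.45 to 85.61. Of 5 fibroblast markers, 4 in MPI-2 LPS and 3 in MPI-2 mock were above background, at 75.46 to 84.09 and 115.8 to 129.8, and 4 in each BMM group, at 80.66 to 94.35 with LPS and 72.48 to 91.06 in mock. The part of these cell types in the results was not tested. The 12 array medians lay between 3.60 and 3.79, but the spread of values differed by group: the interquartile range was 2.95 to 3.04 in MPI-2 LPS, 3.06 to 3.21 in MPI-2 mock, 2.38 to 2.69 in BMM LPS and 2.78 to 2.88 in BMM mock. BMM arrays varied more than MPI-2 arrays: the median SD of the members was 0.066 in MPI-2 LPS, 0.15 in MPI-2 mock, 0.30 in BMM LPS and 0.24 in BMM mock. BMM LPS replicate 3 was the lowest of its group for 8 of the 10 genes and correlated with the other BMM LPS arrays at 0.975 and 0.978, against 0.988 between those 2. The titles call the 3 arrays of each group biological replicates, without saying whether they were separate animals or cultures. In such bulk samples fewer responding cells and less RNA per cell cannot be told apart.

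The promoters of the 3 Nr4a genes, of Btg2 and of Egr2 are shown because Nr4a1, Btg2 and Egr2 were called in opposite directions in the cell types, and Nr4a2 and Nr4a3 are the relatives of Nr4a1. Each line gives the 250 bases before a RefSeq start site of GRCm38.p6, 5′ to 3′ on the gene's strand. Capitals mark matches, on both strands, to TGACG, the core of the CREB site (CGTCA on the other strand), the full CREB site TGACGTCA, the Egr site GCGNGGGCG, TATAAA and the CArG box, to which SRF binds.
Nr4a1 (chr15:101266596-101266845, plus strand): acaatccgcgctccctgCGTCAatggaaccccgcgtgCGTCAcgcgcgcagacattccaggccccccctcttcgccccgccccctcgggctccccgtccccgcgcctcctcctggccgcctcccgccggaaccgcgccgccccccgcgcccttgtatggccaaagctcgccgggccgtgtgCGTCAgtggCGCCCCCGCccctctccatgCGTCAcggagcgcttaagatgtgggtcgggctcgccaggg
Nr4a2 (chr2:57124004-57124253, minus strand): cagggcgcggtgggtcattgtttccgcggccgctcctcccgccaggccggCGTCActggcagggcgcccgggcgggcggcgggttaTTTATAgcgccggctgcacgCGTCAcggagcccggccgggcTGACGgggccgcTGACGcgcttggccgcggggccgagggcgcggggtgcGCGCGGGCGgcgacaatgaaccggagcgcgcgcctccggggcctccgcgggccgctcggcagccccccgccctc
Nr4a3 (chr4:48045055-48045304, plus strand): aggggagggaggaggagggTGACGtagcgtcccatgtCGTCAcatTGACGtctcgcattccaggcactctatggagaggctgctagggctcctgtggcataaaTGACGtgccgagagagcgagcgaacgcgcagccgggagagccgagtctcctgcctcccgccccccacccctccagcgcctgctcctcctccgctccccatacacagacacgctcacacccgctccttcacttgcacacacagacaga
Btg2 (chr1:134079156-134079405, minus strand): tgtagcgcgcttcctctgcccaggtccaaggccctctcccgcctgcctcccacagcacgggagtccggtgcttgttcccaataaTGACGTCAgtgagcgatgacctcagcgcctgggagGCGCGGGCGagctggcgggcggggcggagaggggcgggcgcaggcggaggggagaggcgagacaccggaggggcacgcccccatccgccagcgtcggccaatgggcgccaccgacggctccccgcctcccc
Egr2 (chr10:67537619-67537868, plus strand): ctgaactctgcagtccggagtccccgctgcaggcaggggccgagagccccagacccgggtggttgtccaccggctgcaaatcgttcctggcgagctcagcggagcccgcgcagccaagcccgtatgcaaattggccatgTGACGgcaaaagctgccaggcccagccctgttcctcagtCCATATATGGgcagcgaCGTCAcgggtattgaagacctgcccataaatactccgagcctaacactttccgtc
Nr4a1, Nr4a2 and Nr4a3 each held 4 copies of TGACG. Among 32817 RefSeq windows of the same length, 17.7% held at least 1 copy and 0.137% held 4 or more. Btg2 held the palindrome TGACGTCA, which contains 2 overlapping TGACG matches and occurs in 1.55% of windows. Nr4a1, Nr4a2 and Btg2 each held 1 Egr site, found in 4.70% of windows. Of the 5 Egr2 windows, 3 of which overlap, 4 held a CArG box, against 1.47% of all windows, and the one shown also held 2 copies of TGACG. The 3 overlapping windows hold 1 and the same box (CCATATATGG), so they do not count as separate matches. Btg1 had 2 copies of TGACG and a TATAAA that began 26 bases before the start. Ier3 had 1 match to the NF-kB site and none to the other motifs, and each of the 4 Csrnp1 windows had 1 or 2 copies of TGACG. The NF-kB site occurs in 7.25% of windows and was also in the first Egr2 window. TATAAA occurs in 12.4% of windows and was in Nr4a2 as well as Btg1. The Nr4a monomer site AAAGGTCA, held by 1.34% of windows, and the AP-1 site TGANTCA, held by 6.75%, were searched as well. AAAGGTCA was in no member window, and TGANTCA was in 1 window, of Csrnp1. These windows were richer in G and C than the median window (52.4%), at 74.4% for Nr4a1, 80.0% for Nr4a2, 63.6% for Nr4a3, 73.2% for Btg2 and 61.6% for the Egr2 window shown. A match of letters is not a bound site.

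**Figure D1:**
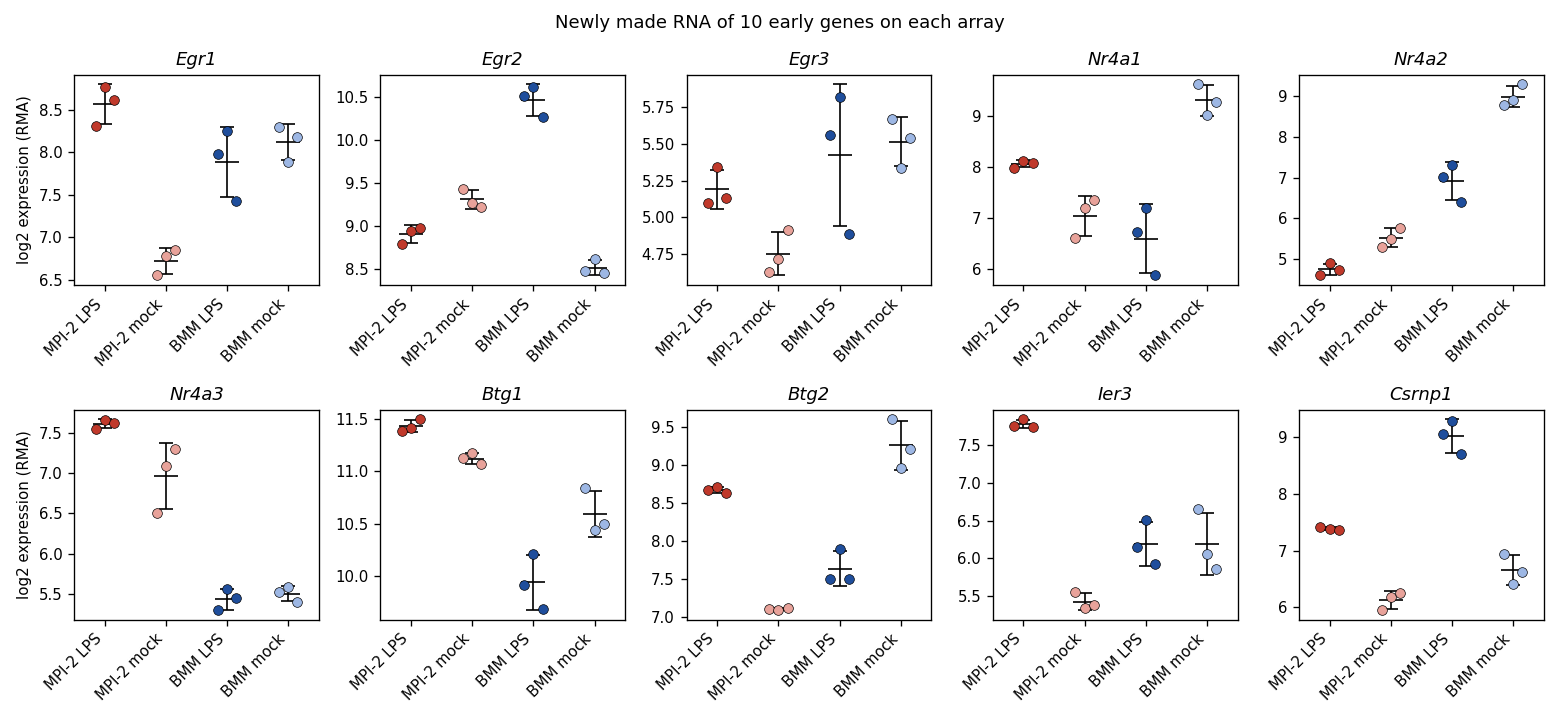
Log2 expression of newly made RNA of the 10 genes, 1 panel per gene, with the 4 groups on the x axis and each panel on its own y scale. Points are arrays, and lines and bars give the mean and SD of 3 arrays. Nr4a1, Nr4a2, Btg2 and, by its mean only, Egr3 are highest in BMM mock, Csrnp1 and Egr2 in BMM LPS, and Egr1, Nr4a3, Btg1 and Ier3 in MPI-2 LPS.

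In MPI-2, 6 of the 10 genes rose with LPS and 2 fell. Ier3, Egr1, Btg2, Csrnp1, Nr4a1 and Nr4a3 rose, and Nr4a2 and Egr2 fell. Egr3 and Btg1 did not pass. Of all genes 14.8% were called in this comparison, 5.17% higher and 9.58% lower, and 4694 had an unadjusted p under 0.05. The median change was 0.83 over the members and 0.02 over all genes. For all 10 members the LPS and mock arrays of MPI-2 did not overlap, as was so for 37.1% of all genes.

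Ier3 had the largest change. It read 7.76, 7.84 and 7.74 in MPI-2 LPS, against 5.56, 5.35 and 5.38 in MPI-2 mock. Every LPS array was thus more than log2 2 above every mock array. The difference was 2.35 ± 0.18 (SE), 5.10-fold (limma adjusted p = 3.40e-07). Egr1 read 8.31, 8.77 and 8.62 in MPI-2 LPS, against 6.55, 6.78 and 6.85 in MPI-2 mock, 1.84 ± 0.19 or 3.58-fold higher (adjusted p = 6.24e-06). In both genes the LPS and mock arrays stood well apart, though Egr1 had the highest SD of the members in MPI-2 LPS (0.23).

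Btg2, which slows the cell cycle, read 8.67, 8.72 and 8.64 in MPI-2 LPS, against 7.11, 7.09 and 7.11 in MPI-2 mock. The arrays of each group lay within 0.1 of each other, and the difference was 1.57 ± 0.16, or 2.97-fold (adjusted p = 3.80e-06). Csrnp1 read 7.42, 7.38 and 7.37 with LPS, against 5.95, 6.19 and 6.26 in mock, 1.26 ± 0.16 higher (adjusted p = 6.41e-05). Its 3 LPS arrays were almost equal and all lay above the mock arrays.

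Among the nuclear receptors, Nr4a1 read 7.99, 8.13 and 8.09 in MPI-2 LPS, against 6.60, 7.19 and 7.35 in MPI-2 mock, 1.02 ± 0.27 higher (adjusted p = 0.0160). Nr4a3 read 7.55, 7.66 and 7.62, against 6.50, 7.09 and 7.30, 0.65 ± 0.17 higher (adjusted p = 0.0141). In both genes MPI-2 mock replicate 1 was the low array of its group. Without it the differences were 0.80 and 0.42 and neither passed (adjusted p = 0.104 and 0.0774). Both calls were also lost without MPI-2 LPS replicate 2 or 3, with Nr4a1 at 0.99 and 1.01 and Nr4a3 at 0.62 and 0.64. Nr4a2 went the other way, at 4.61, 4.90 and 4.73 in MPI-2 LPS, against 5.31, 5.50 and 5.77 in MPI-2 mock. It was lower by a difference of -0.78 ± 0.21 (adjusted p = 0.0160), and 3 of the 6 settings that leave out an MPI-2 array ended the call (MPI-2 LPS replicate 1 or 3 and MPI-2 mock replicate 3, with values of -0.71, -0.77 and -0.66), as did quantile normalization (-0.51).

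Egr2 read 8.79, 8.95 and 8.98 in MPI-2 LPS, against 9.44, 9.27 and 9.22 in MPI-2 mock. The groups stood apart by a small gap, and the difference was -0.41 ± 0.13 (adjusted p = 0.0404). Leaving out each of the 6 MPI-2 arrays in turn ended that call every time (-0.34 to -0.45), as did the replicate numbers as a block (adjusted p = 0.0501) and a trended, robust prior (0.0553). Egr3 was at 5.10, 5.34 and 5.13 in MPI-2 LPS and 4.63, 4.71 and 4.91 in MPI-2 mock, a difference of 0.44 (95% interval 0.03 to 0.85; adjusted p = 0.172). It passed with the 6 MPI-2 arrays alone (adjusted p = 0.00887), with array weights (0.00698), after cyclic loess, a scaling between arrays (0.59, 0.0253), and without BMM LPS replicate 3 (0.0307). Btg1 was at 11.4, 11.4 and 11.5, against 11.1, 11.2 and 11.1, a difference of 0.31 (adjusted p = 0.213) that passed with the 6 arrays alone (0.0258) and with array weights (0.0294) and was -0.10 after quantile normalization.

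BMM gave another pattern under LPS: 2 of the 10 genes rose (Csrnp1 and Egr2) and 4 fell (Nr4a1, Nr4a2, Btg2 and Btg1), while Egr1, Egr3, Nr4a3 and Ier3 did not pass. Of all genes 25.7% were called, 10.3% higher and 15.4% lower, and 7017 had an unadjusted p under 0.05. The median change of the members was -0.16, against 0.04 over all genes. The 6 called members were also those whose LPS and mock arrays did not overlap, as was so for 32% of all genes. All 6 kept their call in each of the 21 alternative settings.

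Nr4a1, also known as Nur77, read 6.72, 7.20 and 5.88 in BMM LPS, against 9.63, 9.03 and 9.28 in BMM mock. Each LPS array lay more than 1.8 below each mock array, with BMM LPS replicate 3 the lowest. The difference was -2.71 ± 0.27, a 6.56-fold lower level (adjusted p = 1.43e-06). It was -2.20 without BMM LPS replicate 3 and BMM mock replicate 1, which had the lowest correlations within their groups. Nr4a2 read 7.02, 7.31 and 6.40 in BMM LPS, against 8.78, 8.89 and 9.29 in BMM mock, a difference of -2.07 ± 0.21 (adjusted p = 1.42e-06). Nr4a3 stayed within its spread, at 5.30, 5.56 and 5.46 in BMM LPS and 5.53, 5.59 and 5.41 in BMM mock, a difference of -0.07 (95% interval -0.42 to 0.29; adjusted p = 0.818).

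Btg2 read 7.50, 7.90 and 7.51 in BMM LPS, against 9.61, 8.96 and 9.21 in BMM mock. No array of either group came within 1 of the other group, and the difference was -1.62 ± 0.16, a 3.08-fold lower level (adjusted p = 1.04e-06). Btg1 fell less, at 9.91, 10.2 and 9.69 in BMM LPS, against 10.8, 10.4 and 10.5 in BMM mock, -0.65 ± 0.15 (adjusted p = 0.00306), and -0.40 without BMM LPS replicate 3 and BMM mock replicate 1 (0.0378). After cyclic loess and quantile normalization it was -1.07 and -1.06. Both relatives thus fell in BMM.

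Csrnp1 had the largest increase of the members in BMM. It read 9.07, 9.30 and 8.70 in BMM LPS, against 6.94, 6.41 and 6.63 in BMM mock, 2.36 ± 0.16 or 5.14-fold higher (adjusted p = 2.93e-08). Egr2 read 10.5, 10.6 and 10.3, against 8.48, 8.62 and 8.45, 1.95 ± 0.13 or 3.86-fold higher (adjusted p = 1.30e-08). In both genes the lowest LPS array exceeded the highest mock array by more than 1.6.

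Egr1 was at 7.98, 8.25 and 7.43 in BMM LPS and 8.30, 7.88 and 8.18 in BMM mock, so the groups overlapped (-0.23, 95% interval -0.64 to 0.17; adjusted p = 0.423). Egr3 was at 5.56, 5.82 and 4.88 in BMM LPS and 5.67, 5.34 and 5.54 in BMM mock (-0.09, interval -0.50 to 0.32; adjusted p = 0.777). BMM LPS replicate 3 set the low end of both. Ier3 was at 6.15, 6.50 and 5.93 in BMM LPS and 6.65, 6.06 and 5.86 in BMM mock, a difference of 0.0038 (interval -0.39 to 0.40; adjusted p = 0.992). It was 0.37 without the 2 BMM arrays named above (adjusted p = 0.0791).

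**Figure D2:**
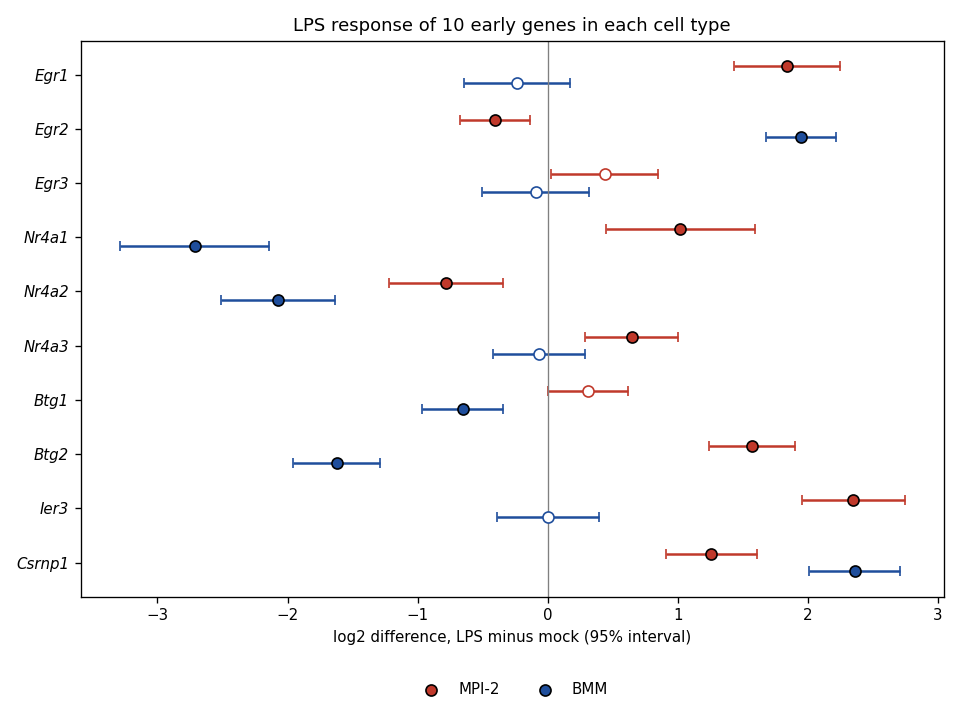
Log2 difference between LPS and mock for each gene in MPI-2 (red, above) and BMM (blue, below), with 95% intervals from the fit. Filled points passed an adjusted p of 0.05 and open points did not. Nr4a1 and Btg2 lie right of 0 in MPI-2 and left of it in BMM, and Egr2 lies on the opposite sides.

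The responses of the cell types differed for 8 of the 10 genes when the difference itself was tested (MPI-2 minus BMM), 6 of them in the positive direction and 2 in the negative. Of all genes 13.4% were called, 7.08% positive and 6.27% negative, and 4548 had an unadjusted p under 0.05. The largest difference was that of Nr4a1, 3.73 ± 0.38 (adjusted p = 6.14e-06), followed by Btg2 at 3.19 ± 0.22 (1.23e-07). These 2 genes were called higher with LPS in MPI-2 and lower in BMM, a combination found in 69 of 19937 genes (0.346%). Egr2 had the mirror image, called lower in MPI-2 and higher in BMM like 139 genes (0.697%), and its difference was -2.36 ± 0.18 (adjusted p = 2.99e-07). The MPI-2 side of the Egr2 and Nr4a1 patterns rests on calls that were lost when single MPI-2 arrays were left out, as given above. Both calls were kept with the 6 MPI-2 arrays alone and with array weights.

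Ier3 and Egr1 rose in MPI-2 and had no called change in BMM, with differences of 2.35 ± 0.26 (adjusted p = 1.47e-05) and 2.08 ± 0.27 (6.70e-05). Nr4a2 was called lower in both cell types, and its fall in BMM was the larger by 1.30 ± 0.29 (adjusted p = 0.00663). Csrnp1 was called higher in both, and its rise in MPI-2 was the smaller, a difference of -1.10 ± 0.23 (adjusted p = 0.00418). Btg1 had a difference of 0.96 ± 0.21 (adjusted p = 0.00470). Nr4a3, at 0.71 ± 0.24 (95% interval 0.21 to 1.22; adjusted p = 0.0608), and Egr3, at 0.53 ± 0.27 (interval -0.05 to 1.11; adjusted p = 0.270), did not pass. Nr4a3 did pass with the replicate block (0.0460), among genes above background only (0.0491) and without MPI-2 mock replicate 3 (0.0200).

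Without LPS all 10 genes differed between the cell types, 3 higher and 7 lower in MPI-2. Of all genes 38.6% were called, 20.6% higher and 18% lower. The arrays of the cell types did not overlap for any of the 10, nor for 52.4% of all genes. The median difference was -0.76 over the members and -0.10 over all genes. Nr4a2 differed most, 11.0-fold lower in MPI-2 mock (-3.46 ± 0.21, adjusted p = 2.03e-09). Nr4a1 was 4.80-fold lower (-2.26 ± 0.27, 5.14e-06), Btg2 4.45-fold lower (-2.15 ± 0.16, 2.00e-08) and Egr1 2.63-fold lower (-1.40 ± 0.19, 2.37e-05). Egr3, Ier3 and Csrnp1 had smaller differences, of -0.76, -0.76 and -0.53, and the call of Csrnp1 depended on MPI-2 mock replicate 1 (-0.44 without it) and BMM mock replicate 1 (-0.39 without it), while it was -0.94 after cyclic loess and -0.95 after quantile normalization. Nr4a3 was 2.74-fold higher in MPI-2 mock (1.46 ± 0.17, adjusted p = 3.52e-06), so the 3 receptors of that family did not follow one direction. Egr2 was higher by 0.79 ± 0.13 (adjusted p = 9.99e-05) and Btg1 by 0.53 ± 0.15 (0.00859), though after cyclic loess Egr2 was at 0.36 (0.0358) and Btg1 at 0.12, which did not pass (0.693).

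After LPS 9 of the 10 differed, 6 higher and 3 lower in MPI-2, among 44.1% of all genes called (22.5% higher and 21.6% lower). The arrays of the cell types did not overlap for those 9, nor for 55.4% of all genes. This comparison and the one without LPS rest on different arrays of the same 2 cell types. The median difference was 0.86 over the members and -0.14 over all genes, a median that cyclic loess moved to -0.01. Nr4a3 was 4.50-fold higher in MPI-2 LPS (2.17 ± 0.17, adjusted p = 3.15e-08), Ier3 3.00-fold (1.58 ± 0.19, 3.51e-06), Btg1 2.82-fold (1.49 ± 0.15, 4.63e-07), Nr4a1 2.77-fold (1.47 ± 0.27, 0.000340) and Btg2 2.05-fold (1.04 ± 0.16, 5.15e-05, and 0.59 after cyclic loess). Egr1 was higher by 0.68 ± 0.19 (adjusted p = 0.00940), but did not pass after cyclic loess (0.22, adjusted p = 0.439) or quantile normalization (0.48, 0.0599), and was 0.45 without BMM LPS replicate 3 (0.0429). Lower in MPI-2 LPS were Nr4a2 (-2.17 ± 0.21, adjusted p = 3.47e-07), Csrnp1 (-1.63 ± 0.16, 6.76e-07) and Egr2 (-1.56 ± 0.13, 5.29e-08). Egr3 did not pass (-0.23, 95% interval -0.64 to 0.18; adjusted p = 0.332), but did without BMM LPS replicate 3 (-0.50, 0.0128), after cyclic loess (-0.53, 0.0207) and after quantile normalization (-0.55, 0.0264). Nr4a1, Btg2, Ier3 and Egr1 were thus lower in MPI-2 than in BMM in mock and higher with LPS, which for Egr1 did not hold as a call after either scaling, and Egr2 had the opposite pattern.

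**Figure D3:**
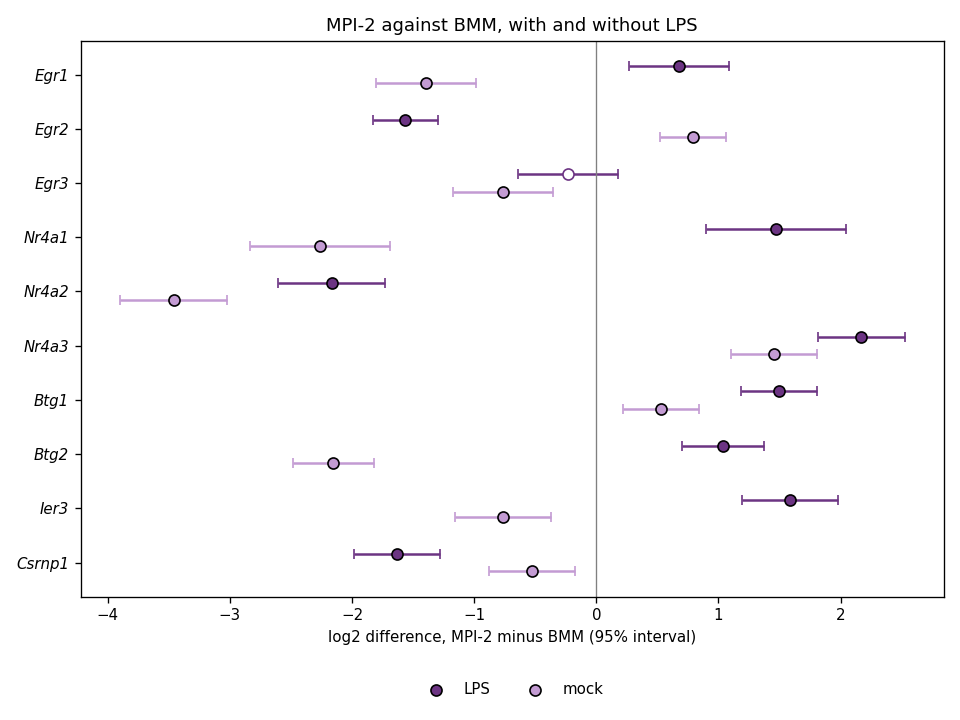
Log2 difference between MPI-2 and BMM for each gene, with LPS (dark, above) and in mock (light, below), with 95% intervals. Filled points passed an adjusted p of 0.05. Nr4a1, Btg2, Egr1 and Ier3 are left of 0 in mock and right of it with LPS, Egr2 is on the opposite sides, and Nr4a2 is left of 0 in both.

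The order of the 4 levels differed from gene to gene. Nr4a1 and Btg2 were highest in BMM mock, followed by MPI-2 LPS, which was lower by 1.24 and 0.58 without overlap of arrays (not tested). For Nr4a1 the 2 lowest groups, MPI-2 mock and BMM LPS, overlapped. Nr4a2 stepped down from BMM mock through BMM LPS and MPI-2 mock to MPI-2 LPS with no overlap at any step. Nr4a3 and Btg1 had both MPI-2 groups on top, and for Nr4a3 the 2 BMM groups overlapped. Ier3 stood highest in MPI-2 LPS, and its 2 BMM groups also overlapped. Egr1 was highest in MPI-2 LPS and lowest in MPI-2 mock, with the BMM groups between them and overlapping. Csrnp1 and Egr2 both stood highest in BMM LPS, but Csrnp1 was lowest in MPI-2 mock and Egr2 in BMM mock. For Egr3 neighbouring groups overlapped among BMM mock, BMM LPS and MPI-2 LPS, and MPI-2 mock had the lowest mean. MPI-2 mock replicate 3 (4.91) still lay above BMM LPS replicate 3 (4.88).

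Likeness between profiles was measured as the root mean square distance over the 12 arrays after each gene was centred on its own mean, a description on the log2 scale. Among the members the closest pairs were Egr1 with Ier3 (0.48), Egr1 with Egr3 (0.51), Nr4a1 with Btg2 (0.51) and Nr4a3 with Btg1 (0.52). The most distant were Nr4a2 and Nr4a3 (2.48), members of 1 family. Their promoters each held 4 copies of TGACG, at different positions. Distance to a gene of small range, such as Egr3, is small in part because both sides move little.

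**Figure D4:**
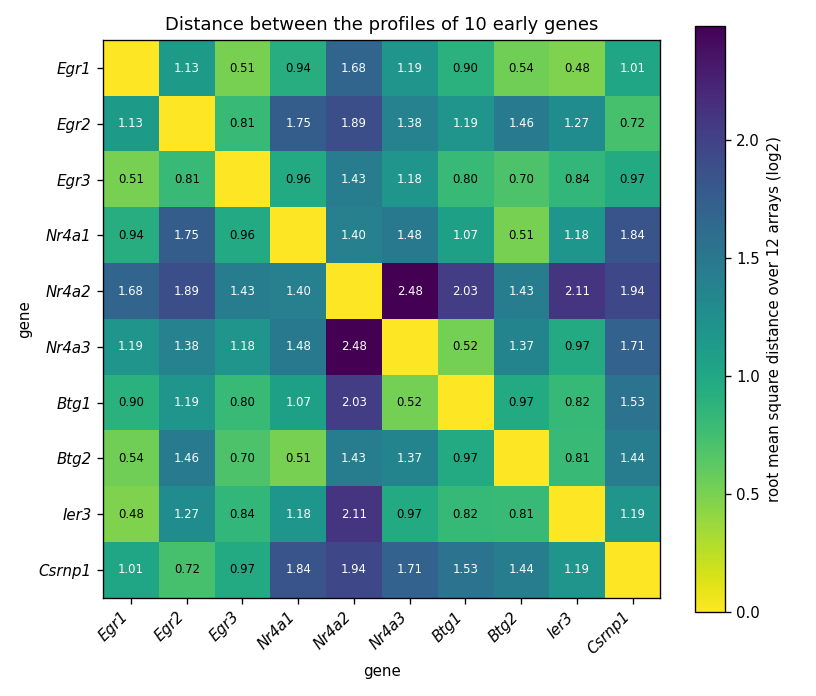
Root mean square distance between the centred log2 profiles of each pair of genes over 12 arrays, printed in each square. Small values (yellow) mean similar profiles. Nr4a2 is far from every other member, at 1.40 or more.

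Outside the members, the genes closest to Nr4a2 were Rgs2, which damps G protein signalling (distance 0.32), the retinal reductase gene Dhrs3 (0.33) and Fos (0.36), the partner of Jun in AP-1. Fos had means of 5.18 in MPI-2 LPS, 6.21 in MPI-2 mock, 7.35 in BMM LPS and 9.55 in BMM mock, the same order as Nr4a2. Closest to Nr4a1 were Enc1 (0.41), Cpeb2, which encodes an mRNA-binding regulator of translation (0.46), and Atox1, a copper chaperone (0.52). Btg2 was nearest to Odc1 (0.34), the first enzyme of polyamine synthesis, then Pea15a (0.38) and Cpeb2 (0.40). Csrnp1 was nearest to Ebi3 (0.20), a subunit of IL-27 and IL-35, Ikbke (0.20), a kinase of interferon induction, and Gdap10 (0.21). Egr2 was nearest to Marchf5 (0.14), Tbc1d1 (0.19) and Phf6 (0.19). Nfkbid (0.33), Slc16a10 (0.33) and Rbis (0.36) were nearest to Egr1, and Capns2 (0.30), Zc3h12a (0.31), an RNase that degrades cytokine mRNA, and Acpp (0.33) to Ier3. The mean of Acpp in MPI-2 mock, 2.94, was below the background level. The nearest genes to Nr4a3 were Nup160 (0.18), Mdn1 (0.20) and Tex10 (0.22), and to Btg1 Mettl6 (0.12), Ing1 (0.13) and Trmt10c (0.14).

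The kinases and factors that act upstream of early genes changed unevenly. For comparison with this list and those below, 5.17% of all genes were called higher and 9.58% lower with LPS in MPI-2. In BMM these shares were 10.3% and 15.4%. For MPI-2 against BMM they were 20.6% and 18% in mock, and 22.5% and 21.6% with LPS. Of 20 measured regulators of the SRF, ERK and CREB routes, 3 rose and 3 fell with LPS in MPI-2 (median -0.06, against 0.02 over all genes), and 7 rose and 4 fell in BMM (median -0.03, against 0.04). Map3k8, the kinase that links Toll-like receptors to ERK, rose in both, by 1.16 ± 0.11 in MPI-2 (adjusted p = 2.60e-06) and by 1.47 ± 0.11 in BMM (7.51e-08). Spred1, an inhibitor of Ras-ERK signalling, rose by 1.20 ± 0.19 and 2.01 ± 0.19 (0.000347 and 8.44e-07). Sik1, a kinase gene induced by CREB, fell in both, with changes of -0.73 ± 0.13 in MPI-2 (adjusted p = 0.00120) and -2.95 ± 0.13 in BMM (2.42e-10). The larger fall in BMM was itself past the threshold (difference 2.22 ± 0.19, adjusted p = 1.01e-06). In mock Sik1 was lower in MPI-2 by a difference of -2.36 ± 0.13 (adjusted p = 1.14e-09), and Spry2, another ERK inhibitor, by -2.18 ± 0.22 (7.37e-07). Mrtfa, an SRF cofactor, fell in BMM, -1.64 ± 0.24 (8.86e-05).

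Of 11 partners of Egr and Nr4a proteins, 1 rose and 2 fell with LPS in MPI-2 and 2 rose and 2 fell in BMM (medians -0.04 and 0.29, against 0.02 and 0.04 over all genes). Rxra, whose protein pairs with Nr4a1 and Nr4a2, fell in both, -1.42 ± 0.17 in MPI-2 (adjusted p = 2.32e-05) and -1.52 ± 0.17 in BMM (4.30e-06). Nab2, an Egr corepressor, fell in BMM, -1.40 ± 0.20 (adjusted p = 5.80e-05), and the difference of its responses was 1.24 ± 0.28 (0.00708). Nab1, the other corepressor, rose in BMM, 0.49 ± 0.17 (adjusted p = 0.0481). Cited2, which competes for the coactivators CBP and p300, rose in both by 0.79 ± 0.16 and 0.76 ± 0.16 (0.00322 and 0.00237).

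Of 17 genes of the Btg and Tob family and the CCR4-NOT complex, none rose and 4 fell with LPS in MPI-2, and 2 rose and 7 fell in BMM (medians -0.16 and -0.02, against 0.02 and 0.04 over all genes). Tob1, a relative of Btg1, fell in MPI-2, -0.97 ± 0.14 (adjusted p = 0.000161). In BMM its mean was also lower with LPS, at 6.58 against 7.06 in mock. Tob2 fell in both, -0.75 ± 0.14 in each (adjusted p = 0.00119 and 0.000612). Cnot6l, a deadenylase subunit, fell by differences of -0.69 ± 0.18 in MPI-2 and -1.29 ± 0.18 in BMM (0.0146 and 5.10e-05). Pabpc1, also in this list, rose in BMM by 1.28 ± 0.14 (adjusted p = 2.96e-06). Its difference of responses was -1.57 ± 0.19 (adjusted p = 3.71e-05). Between the cell types 9 of the 17 were higher in MPI-2 mock and none lower, and 11 were higher and 1 lower in MPI-2 LPS, with medians of 0.45 and 0.57 against -0.10 and -0.14 over all genes. Tob1 led them, 2.76 ± 0.14 higher in mock (adjusted p = 3.61e-10) and 2.27 ± 0.14 in LPS (2.46e-09). Of 6 relatives of Ier3 and Csrnp1, none rose and 1 fell with LPS in each cell type, where 9.58% (MPI-2) and 15.4% (BMM) of all genes fell. That 1 was Csrnp2, -0.97 ± 0.18 in MPI-2 (adjusted p = 0.00171) and -0.71 ± 0.18 in BMM (0.00890), opposite in sign to Csrnp1.

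Among 35 other early genes, 12 rose and 7 fell with LPS in MPI-2, and 7 rose and 14 fell in BMM. The medians were 0.28 and -0.19, against 0.02 and 0.04 over all genes. Of all genes 5.17% rose and 9.58% fell in MPI-2, and 10.3% rose and 15.4% fell in BMM. Called higher in both were 5 (Dusp2, Gadd45b, Maff, Phlda1 and Ptgs2) and called lower in both 6 (Fos, Fosb, Klf10, Klf4, Per1 and Rgs2). None was called in opposite directions, as Nr4a1, Btg2 and Egr2 were. Such calls were rare over all genes too, at 0.346% higher in MPI-2 and lower in BMM and 0.697% the reverse. None among 35 is near those shares. Ptgs2, the inducible prostaglandin synthase, rose by 4.16 ± 0.13 in MPI-2 (adjusted p = 8.19e-12) and 4.12 ± 0.13 in BMM (5.31e-12). Plk2 rose in MPI-2 by 3.26 ± 0.14 (adjusted p = 2.59e-10), with a difference of responses of 3.27 ± 0.19 (2.73e-08). Klf10 fell in both, -2.20 ± 0.17 and -2.50 ± 0.17 (2.55e-07 and 2.00e-08). Without LPS 6 of the 35 were higher and 15 lower in MPI-2, among them Rgs1 (-5.20 ± 0.21, adjusted p = 2.89e-11), Rgs2 (-3.36 ± 0.13, 1.97e-11) and Fos (-3.33 ± 0.18, 9.25e-10).

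**Figure D5:**
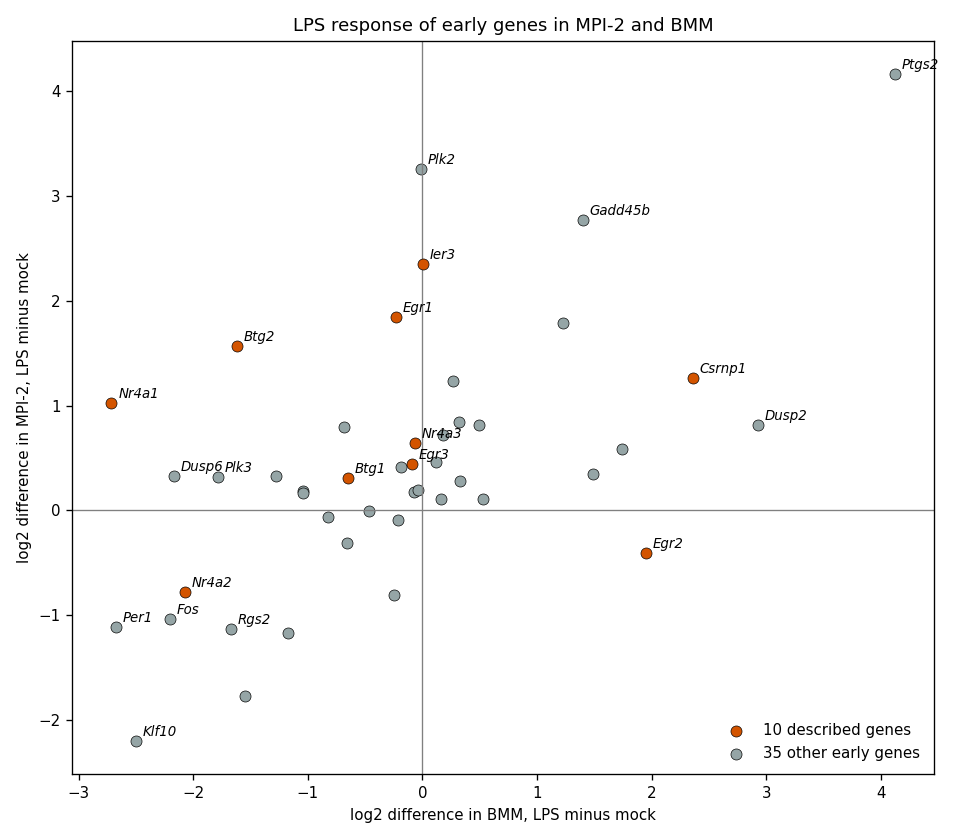
Log2 difference between LPS and mock in MPI-2 (y axis) against that in BMM (x axis) for the 10 genes (orange) and 35 other early genes (grey). Nr4a1 and Btg2 are the orange points far up and left, while Fos, Per1, Klf10 and Nr4a2 lie low in both cell types.

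Heat shock genes, which respond to stress on cells, were examined beside the mock comparison. Of 9 measured, 5 were higher and 2 lower in MPI-2 mock than in BMM mock (median 0.77, against -0.10 over all genes). Of all genes 20.6% were higher and 18% lower in that comparison. Hspd1 was higher by 2.43 ± 0.19 (adjusted p = 4.65e-08) and Hspa1a lower by a difference of -1.44 ± 0.21 (4.28e-05). With LPS 1 rose and 1 fell in MPI-2, and 2 rose and 3 fell in BMM. Hspa1a rose in both, by 0.98 ± 0.21 and 1.09 ± 0.21 (0.00392 and 0.000923). The part of such stress in the members' levels was not tested.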

How the data were processed

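The deposited table gives log2 expression values per probe set and array, made by the authors with RMA and the package affy, per the submitters' processing notes. Those notes name no version of either tool. The values were taken as base 2, the scale of RMA, and ran between 1.18 and 12.82. The interquartile ranges differ between groups, and whether all 12 arrays were normalized in 1 run is not stated. Per the labels' protocols, 200 ng of purified RNA was amplified for Affymetrix arrays. Precision is limited by the number of arrays, which have no read depth.

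Of 34760 probe sets 21640 named 1 gene, 1321 several and 11799 were unnamed here. Symbols were updated through Entrez identifiers to RefSeq GRCm38.p6 (21553 matched), and the probe set with the highest mean stood for a gene. No gene was filtered out. A linear model with 4 group means over 12 arrays was fitted with limma 3.58.1 in R 4.3.3 (8 residual and 6.99 prior degrees of freedom), tested two-sided and checked on simulated data. Alternatives were the 6 arrays alone, cyclic loess, quantile normalization, mean of probe sets, genes above background, a trended robust prior, array weights, a replicate block and each array left out. The 10 genes and the 6 further lists (98 of 105 entries matched) were chosen with earlier results of these data known. Named from each list were up to 4 genes per comparison with the smallest adjusted p, given in part. The nearest genes were the 3 smallest distances among genes whose mean over the 12 arrays was above background. They were taken for members whose group means span at least 1. The classes of call in MPI-2 and BMM were tabulated after the values were seen. Promoter windows are RefSeq's, for 8 of the 10 genes; none was used here for Egr1 or Egr3.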

Additional observations from a re-analysis of the deposited data

Results flagged for a closer look

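The LPS response differed between MPI-2 and BMM, by the test of the difference itself, for 8 of the 10 genes. The log2 difference of responses, MPI-2 minus BMM, was 3.73 for Nr4a1 (1.02 in MPI-2 and -2.71 in BMM), 3.19 for Btg2 (1.57 and -1.62), 2.35 for Ier3 (2.35 and 0.0038), 2.08 for Egr1 (1.84 and -0.23), 1.30 for Nr4a2 (-0.78 and -2.07), 0.96 for Btg1 (0.31 and -0.65), -1.10 for Csrnp1 (1.26 and 2.36) and -2.36 for Egr2 (-0.41 and 1.95). All 8 kept their call in each of the 20 settings tried for this comparison. With BMM LPS replicate 3 and BMM mock replicate 1 both left out, the values were 3.22 for Nr4a1, 2.95 for Btg2, 1.98 for Ier3, 1.76 for Egr1, 1.14 for Nr4a2, 0.71 for Btg1, -1.41 for Csrnp1 and -2.44 for Egr2. The cell types differ in growth factor and medium too, which cannot be told apart from them here.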

How the results depend on the processing

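Of 1040 values of single members under other settings, 990 kept their direction and side of the threshold, 23 lost a call, 14 gained one and 13 changed sign, none of them called in either setting. These were Btg1 for LPS in MPI-2 (-0.0983 after quantile normalization) and 12 values for LPS in BMM. Egr3 was 0.177 after cyclic loess, 0.123 after quantile normalization, 0.0259 with array weights, 0.176 without BMM LPS replicate 3 and 0.253 without it and BMM mock replicate 1, an omission that put Egr1 at 0.0805. Nr4a3 was 0.150 after cyclic loess, 0.198 after quantile normalization and 0.0004 without BMM LPS replicate 1. Ier3 was -0.150 without BMM LPS replicate 2, -0.0624 without BMM mock replicate 2 and -0.162 without BMM mock replicate 3. With any 1 array left out, or the pair, these 4 genes ranged from -0.42 to 0.08 (Egr1), -0.29 to 0.25 (Egr3), -0.13 to 0.0004 (Nr4a3) and -0.16 to 0.37 (Ier3). The lost calls were 18 for LPS in MPI-2, 3 for the cell types in mock and 2 for the cell types in LPS, and none for LPS in BMM or the difference of responses. Members called for LPS in MPI-2 numbered 8, and 4 to 9 with 1 array left out: 5 without MPI-2 LPS replicate 2, 4 without MPI-2 LPS replicate 3 and 5 without MPI-2 mock replicate 1. Fewer arrays were then fitted. Over the other settings the number was 7 to 10, with all 10 called in the 6 MPI-2 arrays alone and with array weights. In the other comparisons the number stayed within 1 of its value. Over all genes, the 2941 calls for LPS in MPI-2 became 5026 with the 6 MPI-2 arrays alone and 5183 with array weights; the cause was not tested. The replicate block ended the call of Egr2 for LPS in MPI-2 (-0.41, adjusted p = 0.0501) and passed Nr4a3 for the difference of responses (0.71, 0.0460), and changed no other member's call. Same-numbered LPS and mock arrays did not deviate together (r between -0.154 and 0.0503 for MPI-2, and between -0.0921 and 0.242 for BMM), so the titles' numbers were not taken as pairs. The descriptions number the MPI-2 mock arrays differently (2 to 4 in place of 1 to 3), and by those numbers 2 pairs are shared, with r of -0.0251 and 0.113. The block values rest on the titles' numbers. The omission of BMM LPS replicate 3 with BMM mock replicate 1 was chosen after seeing the data; 6 members were then called for LPS in BMM, as before. Cyclic loess and quantile normalization, on values already normalized, moved the median of all genes for MPI-2 against BMM in LPS from -0.14 to -0.01 and -0.02. The shares of higher and lower calls moved too: after cyclic loess 1290 genes were positive and 1471 negative for the difference of responses, against 1412 and 1250, and 2404 rose and 2471 fell for LPS in BMM, against 2053 and 3061. The mean of all probe sets of a gene changes no member, since each has 1.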
